A study of Salmo salar with 16 samples.

Results

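Transcript levels of 4 probes for translation-related genes, p43, eif2a, eif4b1 and rpl18, were examined in the liver of 16 Atlantic salmon, among 43689 probes on the array. The arrays lay on 4 slides, called A to D here in the order of their numbers. The probes for p43, eif2a and eif4b1 had been selected by the study on their diet difference on slides B to D, and that for rpl18 was selected on its diet difference on slides C and D. On those slides the diet differences are therefore a description, with no test. The gene names are those the study gave to the probes (p43 is C103R052, eif2a is C067R040, eif4b1 is C253R093 and rpl18 is C152R057), and the identity of the probes and of the liver tissue was not checked further here.

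The fish were juvenile post-smolts with an average weight of 203 g at the start, fed either a high ω6 or a high ω3 diet for 12 weeks and fasted before sampling. The diets held the same proteins and differed in their mix of plant oils. Each diet was given to 4 tanks and each tank gave 2 fish, chosen among those with a weight gain near the mean of their tank. Each fish was labelled with Cy5 and hybridized against a Cy3-labelled pool of all 16 livers, so that a log2 ratio of 0 is the level of the pool. Each slide carried 4 arrays, 2 fish per diet. As whole livers were used, fewer cells that carry a transcript and less transcript per cell cannot be told apart.

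Protein synthesis starts when initiation factors bring a ribosome and the first transfer RNA to the start of a messenger RNA, and continues as aminoacyl-tRNA synthetases supply charged transfer RNAs to the ribosome. In mammals, p43 (AIMP1) is a scaffold of the multi-synthetase complex and, when secreted, a cytokine. The factor eIF2A, encoded by eif2a and distinct from the alpha subunit of eIF2, can deliver initiator transfer RNA, and eIF4B stimulates the helicase eIF4A as it unwinds the leader of a messenger RNA. The ribosomal protein encoded by rpl18 belongs to the large subunit. The liver is a tissue with a high rate of protein synthesis.

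The slides differed in quality. The arrays of slides A and B had 21202 to 26722 unflagged spots, compared with 35173 to 41311 for those of slides C and D. The study at first called no gene, gave the high background of slide A as the reason, and then left this slide out of its gene lists. In addition, the array of high ω6 fish 4 stood apart, with an SD of log2 ratios of 1.30 over its probes, compared with 0.52 to 0.66 on the other 15 arrays. The tanks were not spread evenly over the slides. Both fish of high ω6 tank 24 and both fish of high ω3 tank 26 were on slide A, which held no other fish, so that tank and slide cannot be told apart for these 4 fish. The mates of each of the other 6 tanks were on different slides.

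Considering p43, the scaffold of the synthetase complex, all 6 high ω6 fish of tanks 3, 7 and 21 were below the pool. Their log2 ratios were -0.68 and -1.11 in tank 3, -0.91 and -0.83 in tank 7, and -0.91 and -1.03 in tank 21. These fish therefore spanned a narrow range in 3 tanks and on 3 slides (SD 0.15), a description since these slides chose the probe. With tank 24 included, the SD of the high ω6 diet was 0.82. The high ω3 fish of tanks 2, 8 and 20 had log2 ratios of 0.0039 and 0.66, -0.16 and 1.05, and -0.11 and 1.01, respectively. In each of these 3 tanks one mate was near the pool and the other was clearly above it. The order was the opposite in the remaining tanks. The log2 ratios of p43 were 1.27 and 0.15 in high ω6 tank 24, and -0.31 and -1.01 in high ω3 tank 26. The first of these was the highest p43 level of the series.

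The probe for eif4b1, the cofactor of the eIF4A helicase, followed a like order of tanks. In high ω6 tanks 3, 7 and 21 its log2 ratios were -1.17 and -1.09, -2.11 and -1.60, and -1.81 and -1.34, all well below the pool. In high ω3 tanks 2, 8 and 20 they were 0.0039 and 0.39, -0.73 and 1.11, and -0.85 and 0.33. Hence, the lowest of these 6 high ω3 fish was above the highest of the 6 high ω6 fish. This is a description, since the slides of these fish chose the probe, and 0.103% of 11642 probes had such an order there. Over all 4 slides the diets overlapped. On slide A eif4b1 was 0.70 and 0.17 in high ω6 tank 24, and 0.17 and -2.11 in high ω3 tank 26. The mates of tank 26 were thus 2.28 apart, the widest gap between mates for eif4b1.

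For eif2a, the initiation factor that can deliver initiator transfer RNA, the diets overlapped. The log2 ratios were 0.088 and -0.88 in high ω6 tank 3, -1.25 and -0.45 in tank 7, and -1.62 and -0.72 in tank 21. Fish 1 of tank 3 was the 1 high ω6 fish of these tanks that reached the pool. In high ω3 tanks 2, 8 and 20 they were 0.65 and 0.12, 1.30 and 1.38, and -0.14 and 1.27. The 2 mates of tank 8 were nearly alike and were the highest of the series. On slide A the 2 fish of tank 24 had log2 ratios of 0.92 and 0.78, and the 1 fish of tank 26 with an unflagged spot had 0.19.

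The probe for rpl18, a protein of the large ribosomal subunit, varied most from fish to fish in the high ω3 diet only. Its SD there was 1.70, compared with 0.64 to 0.99 for the other probes, and in the high ω6 diet it was 0.78, compared with 0.82 to 0.98. It was unflagged on 12 arrays, 5 of the high ω6 diet and 7 of the high ω3 diet, whereas eif2a was unflagged on 15 and p43 and eif4b1 on all 16. In the high ω3 diet, rpl18 ranged from -1.71 to 2.87 (median 0.18, n = 7), and in the high ω6 diet from -1.04 to 0.93 (median -0.62, n = 5). Both mates of high ω3 tank 2, at 2.87 and 1.72, were above every other fish of the series, although they were on different slides. The other high ω3 fish were at 0.18 and -1.65 in tank 8, 0.89 and -0.35 in tank 20, and -1.71 in tank 26. The high ω6 fish were at 0.93 and -0.23 in tank 3, -1.04 in tank 7, -0.62 in tank 21 and -0.86 in tank 24. Without the 2 fish of tank 2, the high ω3 fish spanned the whole range of the high ω6 fish except for its highest value.

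**Figure D1:**
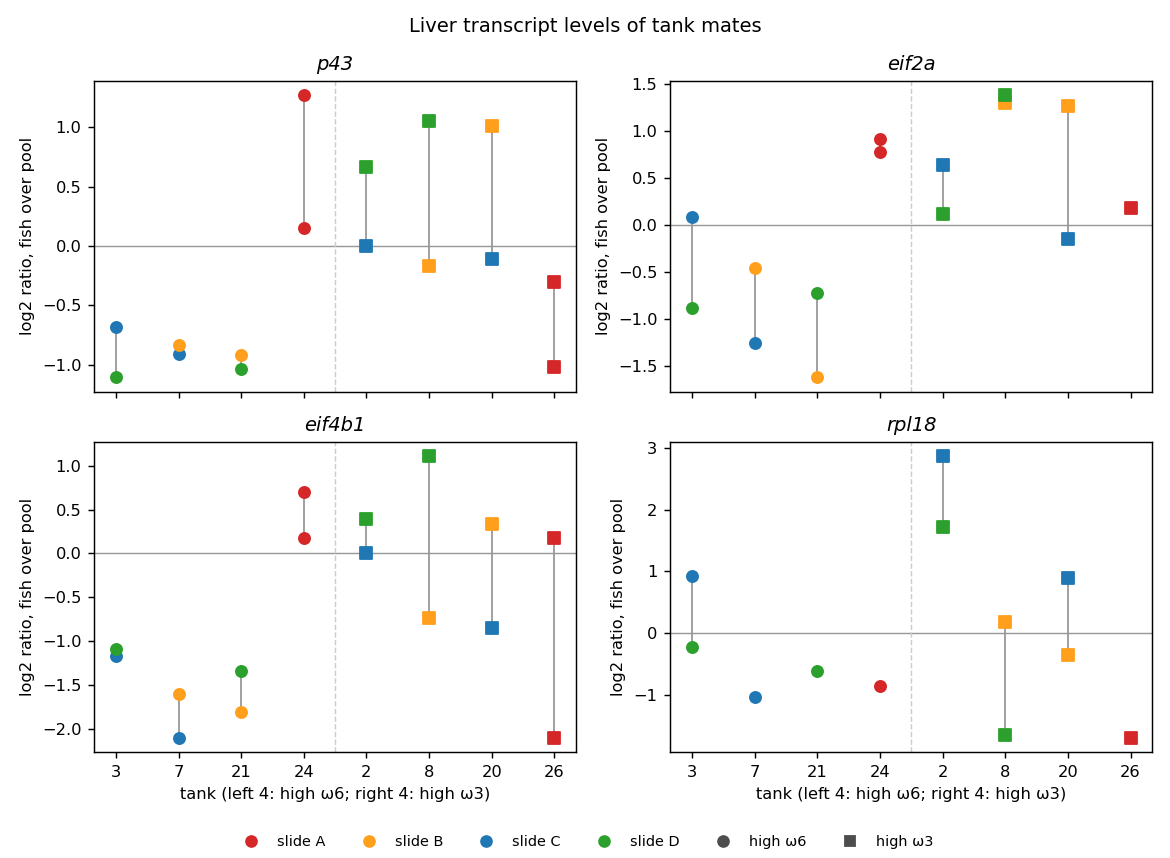
Log2 ratio of each fish over the reference pool (vertical axis) for the 4 probes, by tank (horizontal axis, high ω6 tanks on the left and high ω3 tanks on the right), with tank mates joined by a line and slides shown by colour. For p43, eif2a and eif4b1 both fish of tank 24 were above the pool, whereas at least 1 fish of each of the other 3 high ω6 tanks was below it, and both rpl18 values of tank 2 were the highest of the series.

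The 4 missing rpl18 values were all on slides A and B, and 3 of them were of high ω6 fish. On these flagged spots the Cy5 signal was 1.31 to 2.34 times the local background (median 1.70), compared with 1.27 to 45.0 times on the 12 unflagged spots (median 4.64). The flags thus fell on dim spots, and some spots as dim were kept, the dimmest being that of high ω3 fish 7 (1.27 times). In comparison, the median Cy5 signal over background on unflagged spots was 6.73 for p43, 5.52 for eif2a and 10.9 for eif4b1. The lowest was 2.45, 1.73 and 4.00, respectively. The 2 lowest eif2a levels, of high ω6 fish 5 and 3, came from spots at 1.73 and 1.76 times the background, as dim as flagged rpl18 spots. No spot of the 4 probes was saturated. The local Cy5 background of the p43 spots was 294 to 404 (median 326) on slide A and 173 to 495 (median 315) on slide B, compared with medians of 228 and 224 on slides C and D. The eif2a spots lay in a brighter background, with medians of 963 and 951 on slides A and B, and 572 and 491 on slides C and D. The part of the background in the results was not tested.

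Setting the diets against each other slide by slide, the mean p43 difference, high ω6 minus high ω3, was -1.29 on slide B, -0.74 on slide C and -1.93 on slide D. The corresponding differences were -2.32, -0.83 and -1.55 for eif2a, and -1.51, -1.22 and -1.96 for eif4b1. All of these belong to the contrast that chose the probes, and among these 3 probes and 3 slides the diets overlapped only for eif2a on slide C. The share of all probes without overlap on each of these slides alone was not calculated. Over slides B to D, p43 and eif4b1 did not overlap between diets, as was the case in this direction for 0.103% of the 11642 probes measured in all 12 fish, a share that is a description since this contrast was used to choose them. On slide C the mean rpl18 difference was -1.93, and on slide D it was -0.46, with overlap of the diets on both.

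On slide A, which was left out of the gene lists, the differences of p43, eif2a and eif4b1 had the opposite sign. As the study left this slide out after calling no gene with it, its fish were not independent of the choice of the probes. The p43 level was 0.71 (n = 2) in high ω6 and -0.66 (n = 2) in high ω3 fish, a difference of 1.37 on the log2 scale (exact permutation test, two-sided, p = 0.333, the smallest the design allows). For eif4b1 the means were 0.44 and -0.97 (n = 2 each), a difference of 1.41 (exact permutation test, p = 0.333). The 2 diets were separated by almost nothing for eif4b1, as the lower high ω6 fish and the higher high ω3 fish were both at 0.17. For eif2a the difference was 0.66 (n = 2 and 1, exact permutation test, p = 0.333). Every high ω6 fish was above every high ω3 fish of slide A for 17.9% of the 11249 probes measured in all 4 fish, so that the order of p43 and eif4b1 was a common one on this slide. With the deposited log2 ratios in place of the scanner files, both probes overlapped between diets on this slide (exact permutation test, p = 0.667 for each), and eif4b1 also overlapped with median centring of the arrays and with flagged spots kept. Leaving out 1 fish gave 0.81 to 1.93 for p43 (0.81 without high ω6 fish 7) and 0.27 to 2.55 for eif4b1 (0.27 without high ω3 fish 8 and 2.55 without high ω3 fish 7), so that the size of the eif4b1 difference depended on the 2 mates of tank 26. The number of fish did not allow a p below 0.05.

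For rpl18, the fish outside the slides that gave its call were those of slides A and B. These fish were likewise not independent of the choice, as the study took gene lists from different sets of slides. The mean was -0.86 in the 1 high ω6 fish and -0.63 in the 3 high ω3 fish with a value, a difference of -0.23 that lay within the spread of the latter (exact permutation test, two-sided, p = 1, smallest possible p = 0.25). Slide B had no high ω6 value, so diet and slide cannot be told apart in this difference. On slide A alone, the 1 high ω6 fish was at -0.86 and the 1 high ω3 fish at -1.71, a difference of 0.85 with the opposite sign. Both spots were dim, with a Cy5 signal of 2.21 and 1.27 times the background, respectively. The latter was below every flagged rpl18 spot. Leaving out high ω3 fish 3 turned the difference over both slides to 0.17, and it was -0.093 without high ω3 fish 6 and -0.77 without high ω3 fish 7.

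Over all 4 slides, limma gave a difference of -0.65 (SE 0.36) for p43, -1.07 (SE 0.38) for eif2a, -0.82 (SE 0.45) for eif4b1 and -0.64 (SE 0.71) for rpl18. The rpl18 difference was -0.21 without high ω3 fish 1 and -0.40 without high ω3 fish 2, the mates of tank 2, and -0.97 without high ω6 fish 1 or high ω3 fish 7. None of the 25061 probes tested, 0%, passed a Benjamini-Hochberg adjusted p of 0.10 in limma, and 638 had an unadjusted p under 0.05. None of the 4 probes passed the limma F test between slides with diet in the model (adjusted p = 0.54 to 0.94), which 1.18% of 24916 probes passed. With median centring of the arrays in place of loess, however, the slide test called eif2a (adjusted p = 0.048) and eif4b1 (adjusted p = 0.090), among 39.6% of all probes.

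**Figure D2:**
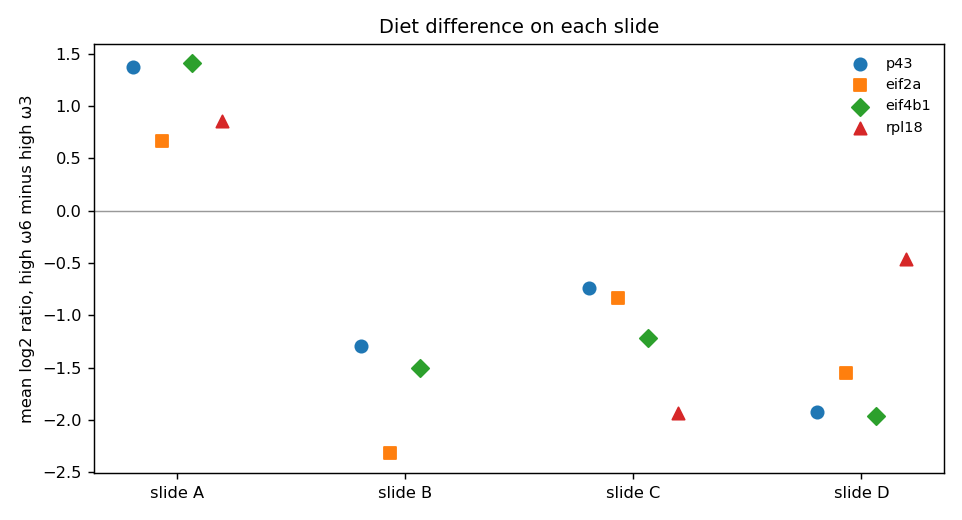
Difference in mean log2 ratio, high ω6 minus high ω3 (vertical axis), of each probe on each slide (horizontal axis), with up to 2 fish per diet and slide. p43, eif2a and eif4b1 were between -2.32 and -0.74 on slides B to D and between 0.66 and 1.41 on slide A, and rpl18 had no high ω6 value on slide B.

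The probes were then compared fish by fish. On slides B to D, p43, eif2a and eif4b1 were all below the pool in 5 of 6 high ω6 fish and in 1 of 6 high ω3 fish (fish 5, tank 20), and all above it in 4 of 6 high ω3 fish and in no high ω6 fish. Among the high ω3 fish with all 3 above the pool, fish 1 was level with it in p43 and eif4b1 (0.0039 each). With flagged spots kept, these 2 values were -0.0029 and -0.012. These counts follow in part from the choice of the 3 probes on the diet difference of these fish. They are a description, and the share for other probes was not calculated. On slide A, both high ω6 fish had all 3 above the pool. To compare levels without the diet and the slide, the difference between the 2 fish of a diet on a slide was taken, lower minus higher fish number, which gave 8 differences for p43 and eif4b1, 7 for eif2a and 5 for rpl18.

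The differences of p43 and eif4b1 mostly had the same direction. The fish with the higher p43 also had the higher eif4b1 in 7 of 8 pairs, the exception being high ω6 fish 2 and 6 of slide D, whose p43 levels differed by only 0.073. The correlation was r = 0.74 (exact sign-flip test, two-sided, p = 0.023) with rho = 0.90 (exact p = 0.023), and r = 0.95 without the 2 pairs with the largest p43 difference. Adjusted over the 3 correlated pairs of probes, the exact p was 0.062 for r and 0.070 for rho, above 0.05. In the pair with the largest eif4b1 difference, the 2 mates of tank 26, p43 differed by 0.71 and eif4b1 by 2.28. A correlation with p43 at least as high was seen for 0.377% of 7960 probes unflagged on all arrays, where the median r was -0.023. This share is a description over probes, which share arrays and are not independent.

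For p43 and eif2a, 6 of 7 pairs went the same way, but the sizes of the differences did not match. The correlation was r = 0.28 (exact sign-flip test, p = 0.047, adjusted p = 0.062) with rho = 0.61 (exact p = 0.047, adjusted p = 0.070), and r = 0.90 without the 2 pairs with the largest p43 difference. In those 2 pairs, high ω6 fish 7 and 8 and high ω3 fish 3 and 6, p43 differed by 1.12 and -1.17 while eif2a differed by 0.14 and 0.032. Conversely, high ω6 fish 1 and 3 differed by 1.34 in eif2a and by 0.23 in p43. The eif2a spot of fish 3 was dim, with a Cy5 signal of 1.76 times the local background. Of the probes unflagged on all arrays, 14.6% had a correlation with p43 as high as that of eif2a. Those correlations used all 8 differences of p43, whereas that of eif2a used 7. Over the 7 differences of eif2a, 25.6% of 7961 probes had a correlation with eif2a as high as that of p43.

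For eif2a and eif4b1, both initiation factors, 5 of 7 pairs went the same way. The correlation was r = 0.69 (exact sign-flip test, p = 0.062, adjusted p = 0.062) with rho = 0.61 (exact p = 0.156, adjusted p = 0.156), and r = 0.43 without the 2 pairs with the largest eif2a difference. A correlation with eif2a this high was seen for 4.36% of probes, and a correlation with eif4b1 this high for 0.729%. The latter share used all 8 differences of eif4b1 for the other probes, but 7 for eif2a. Thus, of the 3 pairs of probes, none passed 0.05 after adjustment.

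**Figure D3:**
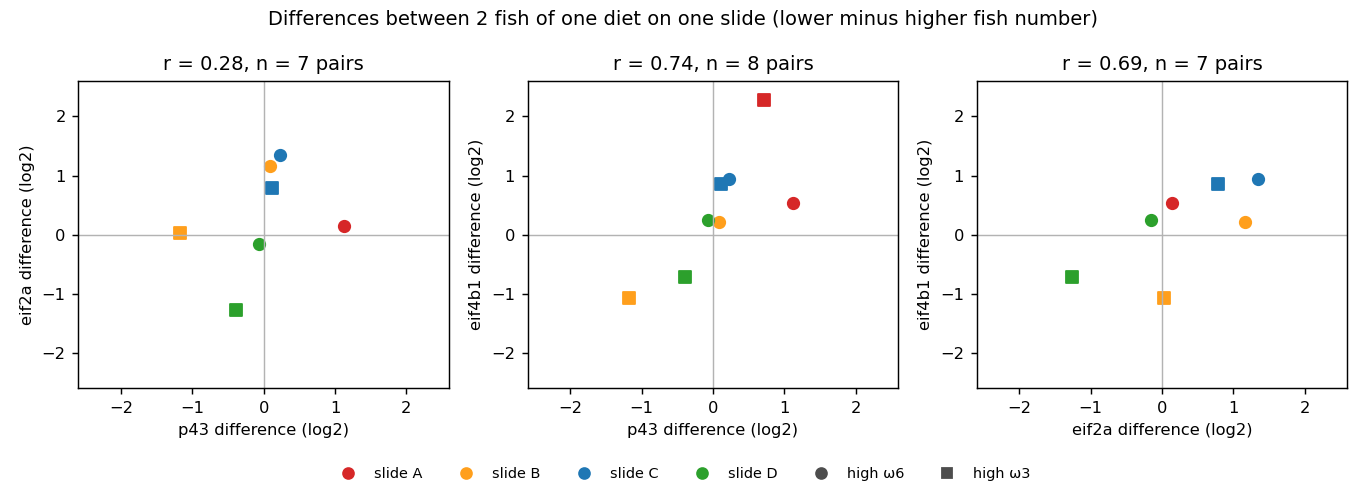
Difference in log2 ratio between the 2 fish of one diet on one slide for each pair of probes (each axis 1 probe, log2 units, each point 1 pair of fish, coloured by slide). The points for p43 and eif4b1 lie along a rising line (r = 0.74, n = 8), whereas those for p43 and eif2a form a cross with r = 0.28 (n = 7).

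When each fish was set against the mean of its diet in place of its slide mate, the correlations were higher, at r = 0.88 (rho = 0.73, n = 16) for p43 and eif4b1, r = 0.71 (rho = 0.67, n = 15) for p43 and eif2a, and r = 0.73 (rho = 0.74, n = 15) for eif2a and eif4b1. Their permutation p adjusted over 6 pairs of probes was 4.8e-04, 0.0078 and 0.0078, and r was 0.81, 0.53 and 0.50 without the 2 fish farthest from the median of their diet in the first probe. The choice of the probes on slides B to D can leave a shift between slides that they share, so these p are a description. The correlations include the 4 fish of slide A, of which the 2 of tank 24 were above every other high ω6 fish in all 3 probes. Restricted to the 12 fish of slides B to D, they were r = 0.75 (rho = 0.64, permutation p = 0.030, adjusted over 6 pairs of probes p = 0.178), r = 0.38 (rho = 0.36, adjusted p = 0.470) and r = 0.47 (rho = 0.49, adjusted p = 0.470), respectively. Leaving out the 2 fish farthest in the first probe of each pair gave 0.55, -0.052 and 0.18. These fish were not the same for each pair. They were high ω3 fish 4 and 6 where p43 came first, and high ω3 fish 5 and high ω6 fish 1 for eif2a and eif4b1. Each of the 2 correlations of eif2a thus depended on its own 2 fish.

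Within the high ω6 diet, p43 and eif4b1 had r = 0.90 and rho = 0.48 over 8 fish (exact permutation p = 0.010 and 0.243), but r fell to -0.11 without the 2 fish farthest from the median p43, so that the relation rested on those fish. Within the high ω3 diet, r was 0.87 and rho 0.81 over 8 fish (exact permutation p = 0.0047 and 0.022), and r was 0.83 without 2 fish. Adjusted over the pairs of probes of each diet, the exact p for r was 0.010 in high ω6 (3 pairs) and 0.028 in high ω3 fish (6 pairs). For p43 and eif2a, r was 0.83 in high ω6 (rho = 0.81, adjusted exact p = 0.0041, 0.53 without 2 fish) and 0.50 in high ω3 fish (rho = 0.39, adjusted exact p = 0.374, 0.19 without 2 fish). For eif2a and eif4b1, it was 0.90 (rho = 0.81, adjusted exact p = 0.0041, 0.65 without 2 fish) and 0.50 (rho = 0.46, adjusted exact p = 0.374, 0.26 without 2 fish). The values of each diet again include the 2 fish of slide A. The choice of the probes on slides B to D can leave a shift between slides that they share. These within-diet p are therefore a description. Whether the diets differed in these correlations was not tested.

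No such order was seen for rpl18. With 5 pairs of fish, no correlation within slide and diet was calculated. The fish with the higher rpl18 had the higher p43 in 2 of 5 pairs, and the higher eif2a or eif4b1 in 3 of 5. The widest gap was between high ω3 fish 2 and 4 on slide D, where fish 2 was higher by 3.37 in rpl18 but fish 4 was higher in p43, eif2a and eif4b1, by 0.39, 1.27 and 0.72. Against the mean of the diet, rpl18 had r = -0.17 (rho = -0.060, n = 12) with p43, r = -0.32 (rho = -0.42, n = 11) with eif2a and r = -0.25 (rho = -0.20, n = 12) with eif4b1, with permutation p of 0.619, 0.341 and 0.444 (adjusted p = 0.511 to 0.619). A p of this size does not show that rpl18 was unrelated to the others.

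Between tank mates, the mean absolute difference was 0.68 for p43, 0.69 for eif2a, 0.91 for eif4b1 and 1.35 for rpl18. Fish of the same diet from different tanks differed by 0.87, 1.06, 1.17 and 2.11, respectively. With both diets pooled, mates were thus closer than other fish of the diet for each probe, but none passed the test over pairings of fish. The order did not hold in each diet alone. High ω3 mates were on average farther apart than high ω3 fish of different tanks for p43 and eif4b1. In tanks 2, 8, 20 and 26 they differed by 0.66, 1.22, 1.12 and 0.71 for p43. For eif4b1 the values were 0.38, 1.84, 1.18 and 2.28. The rpl18 mates of high ω6 tank 3, at 1.16, were also farther apart than high ω6 fish of different tanks on average. The intraclass correlation of mates around the diet mean was 0.38 for p43 (8 tanks, exact permutation test over pairings, one-sided, p = 0.061), 0.42 for eif2a (7 tanks, exact p = 0.088), 0.20 for eif4b1 (8 tanks, exact p = 0.147) and 0.43 for rpl18 (4 tanks, exact p = 0.133), and the p adjusted over the 4 probes was 0.147 for each. For rpl18 only 15 pairings were possible, too few for a p below 0.05, so its test could not have passed. Over 7961 probes the median intraclass correlation was 0.082, and 19.0% to 38.7% of probes had a value as high as these 4. Without tank 24, it was -0.052 for p43, -0.17 for eif2a and -0.39 for eif4b1. The likeness of mates for these 3 probes therefore rested on that tank, whose 2 fish shared slide A.

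The tank means were also set side by side. The means of p43 were -0.97 to -0.87 in high ω6 tanks 3, 7 and 21 and 0.33 to 0.45 in high ω3 tanks 2, 8 and 20. For eif4b1 they were -1.86 to -1.13 and -0.26 to 0.20, and for eif2a -1.17 to -0.40 and 0.38 to 1.34. Hence, for these 3 probes the means of the 3 tanks of each diet did not overlap on the slides that chose them, although single fish did for eif2a. This order is a description, since the same contrast chose the probes, and its share over all probes was not calculated. Tank 24 was above every other tank in p43 and eif4b1, and tank 26 was below the other 3 high ω3 tanks in p43, eif4b1 and, from 1 fish, eif2a. For rpl18 the 8 tanks overlapped, from -1.71 in tank 26, which rests on 1 dim spot, to 2.30 in tank 2.

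As the Cy3 channel held the same pool on every array, the channels were also taken apart. With the diet means removed, the SD over arrays of the Cy5 level was 0.96 for p43, 0.82 for eif2a, 1.01 for eif4b1 and 1.78 for rpl18, on the log2 scale. The SD of the Cy3 level was 0.69, 0.63, 0.46 and 0.75, although the RNA was the same. The ratio of the SDs was 1.40, 1.32, 2.21 and 2.36, compared with a median of 1.20 over all probes. With the channels centred on the array median and no loess, the ratio was 0.92 for p43 and 0.84 for eif2a, compared with a median of 0.94 over all probes. Under that scaling, the Cy5 level did not vary more than the Cy3 level for these 2 probes, as was the case for the median probe. Part of this spread lay between slides. Between fish of the same slide and diet, the SD of Cy5 and of Cy3 was 0.44 and 0.25 for p43, 0.64 and 0.098 for eif2a, 0.65 and 0.36 for eif4b1, and 1.26 and 0.26 for rpl18. The steadiest pool signal was that of eif2a, with a ratio of 6.58, a value reached by 1.71% of probes. The ratio of rpl18 was 4.85, reached by 4.42% of probes. Those of p43 (1.77) and eif4b1 (1.80) were nearer the median over all probes, 1.53, and were reached by 40.6% and 39.5%.

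The pairs of probes were also compared in each channel. Between fish of a slide and diet, the p43 and eif4b1 differences had r = 0.82 in Cy5 and r = 0.34 in Cy3 (n = 8). For eif2a and eif4b1 they had r = 0.59 in Cy5 and r = 0.69 in Cy3 (n = 7), and for p43 and eif2a r = 0.11 and -0.13 (n = 7). For eif2a and eif4b1, r was thus similar in the 2 channels, but the size of the variation was not. The SD of eif2a was 0.098 in Cy3 and 0.64 in Cy5, and that of eif4b1 was 0.36 and 0.65. The part of the pool channel in the correlation of their ratios was not tested.

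**Figure D4:**
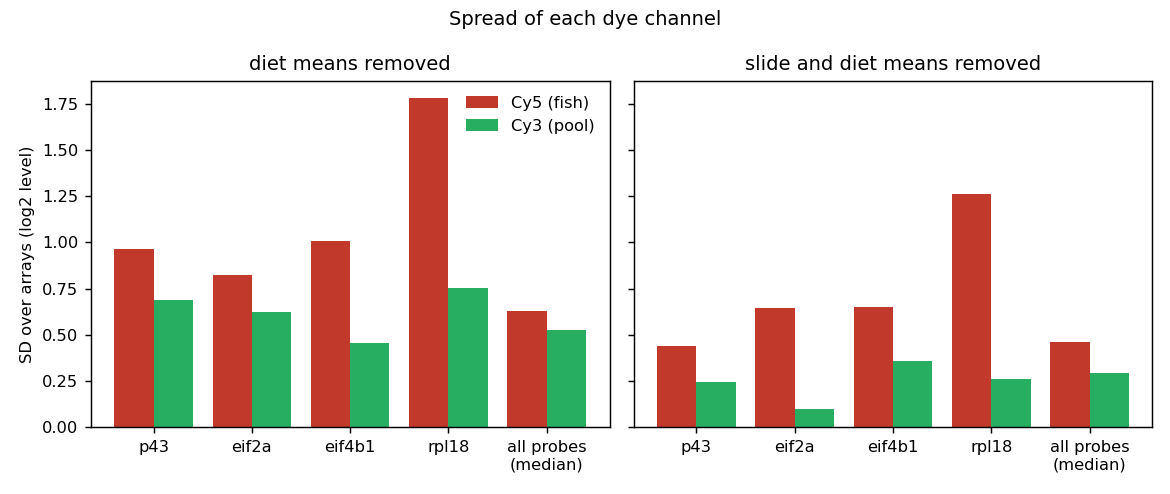
SD over arrays of the log2 level in Cy5 (fish) and Cy3 (reference pool) for the 4 probes and the median over all 25061 probes, with diet means removed (left) or slide and diet means removed (right). The Cy5 bar of rpl18 is the highest in each panel, at 1.78 and 1.26, and the Cy3 bar of eif2a falls to 0.098 once slides are removed.

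By their differences within slide and diet, the probe most like p43 outside the 12 selected probes was C018R054 (r = 0.89, n = 8 pairs), that most like eif2a was C009R138 (r = 0.97, n = 7) and that most like eif4b1 was C136R130 (r = 0.90, n = 8), each the highest of about 7960 probes. These probes carry no gene name here. Among the other 8 selected probes, the most like p43 was htra1b (r = 0.16, n = 8), a serine protease, the most like eif2a was helz2a (r = 0.31, n = 6), a helicase that coactivates nuclear receptors, and the most like eif4b1 was lect2a (r = 0.31, n = 6), a hepatokine. Those of the 8 probes with at least 6 shared pairs of fish thus had lower correlations with p43 and eif4b1 than these 2 had with each other. For eif2a, however, helz2a (r = 0.31) was above p43 (r = 0.28) and below eif4b1 (r = 0.69).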

How the data were processed

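The authors scanned each slide, quantified spots in Imagene and deposited the intensity of signal and local background in Cy5 and Cy3, without background subtraction, with flags for poor spots. They also deposited log2 ratios, loess-normalized within arrays, in which rpl18 has no value. That table was used as an alternative.

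Here, values of flagged spots were left out. The median signals then went through normexp background correction (offset 50) and loess normalization within each array in limma 3.58.1 (R 4.3.3). Channel levels were further scaled between arrays by Aquantile. Probes unflagged on at least 12 arrays were tested. Group and fish number were taken from the titles, and tank and slide from the labels and files (slides A to D follow the order of the slide numbers). The members, lists and tests were chosen with earlier results of these data known. The limma model held diet alone. Differences between fish of a slide and diet were tested by exact sign flips, tank mates by all pairings of fish within a diet, and diets by exact permutation over fish (all two-sided except for tank mates). Fish-level tests treat tank mates as independent. For differences between fish, r was taken through the origin, without centring. The rho of these differences used their ranks among the differences and the same differences with the sign reversed. Diet-centred correlations used 100000 permutations. The threshold was 0.05, and 0.10 for adjusted p over all probes.

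For the named probes, the rule was the 4 members and, for each, the probe most like it outside the 12 probes the study reported (unflagged on all 16 arrays) and the most like of the other 8. The tests were checked on simulated data. Channel correlations, channel spread within slide and diet, and 2 settings for the share of probes without overlap were chosen after seeing the data. The number of arrays limits the precision. Python 3.11.15, numpy, pandas and scipy were used.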

Additional observations from a re-analysis of the deposited data

Results flagged for a closer look

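The diet differences of p43 and eif4b1 had opposite signs on slide A and on slides B to D, with every high ω6 fish above every high ω3 fish on the former and below on the latter. The order on slide A was shared by 17.9% of 11249 probes, and that on slides B to D, which chose the probes, by 0.103% of 11642. With the deposited log2 ratios both probes overlapped between diets on slide A. The difference on slide A was 1.37 for p43 and 1.41 for eif4b1 on the log2 scale, and the latter was 0.27 without high ω3 fish 8. The difference between the slides was not tested, since slides B to D were used to choose these probes. No fish was set apart from its diet by Dixon's test for any of the 4 probes. The test takes the gap next to 1 end value, so it cannot set apart 2 fish that were high together. This was the case for the 2 fish of tank 24 in eif4b1, where the gap over the range was 0.19 (critical value 0.526).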

How the results depend on the processing

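No probe was called between diets under any alternative. Of the 272 values under alternatives, 250 kept their direction and their side of the threshold. This count is no measure of robustness, as many of these values could not change. Leaving out a fish that had no part in a result returned the same value. Leaving out either fish of a pair gave 1 result listed again, and the tests on slide A could not pass 0.05. The number of probes called between slides was 294, compared with 0 without background correction and 9866 with median centring. The correlation of p43 and eif4b1 (0.74) was past the threshold without background correction (0.80), with median centring (0.83) and around the diet mean (0.88), as were those of p43 and eif2a (0.71) and of eif2a and eif4b1 (0.73) around the diet mean; this last setting includes the differences between slides, and for the others the cause was not tested. With each fish left out in turn, r was 0.72 to 0.81 for p43 and eif4b1, past the threshold without the high ω6 pair of slide D (0.75, adjusted p = 0.047), 0.19 to 0.41 for p43 and eif2a, and 0.58 to 0.85 for eif2a and eif4b1.

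The intraclass correlation of mates was -0.052 to 0.50 for p43, -0.17 to 0.62 for eif2a and -0.39 to 0.39 for eif4b1 with each tank left out. The rpl18 difference in the fish of slides A and B was -0.77 to 0.17. With median centring of the channels, the ratio of the Cy5 to the Cy3 SD was 0.92 for p43, 0.84 for eif2a and 1.07 for eif4b1 (median over all probes 0.94). With slide and diet means removed it was 6.58 for eif2a and 4.85 for rpl18 (median over all probes 1.53). Without high ω6 fish 4, 0.276% of probes did not overlap between diets on slides B to D.

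The fish number as a replicate block gave -0.65 for p43, -1.26 for eif2a, -0.82 for eif4b1 and -1.35 for rpl18, with no probe called. Over 7961 probes, deviations from the diet mean of same-numbered fish had r of 0.087 to 0.60, over 0.1 in 7 of 8 pairs, and 4 of 8 high ω6 fish correlated best with their own number, so that the numbers were not taken as pairs. In 4 of the 8 pairs both fish were on the same slide. Signal over background limits rpl18 most.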
